A study of Mus musculus with 13 samples.

Results

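Lung RNA levels are described here for 10 genes of the elastic fibre and of the fibulin family: Eln, Fbn1, Fbln1, Fbln2, Fbln5, Fbln7, Efemp1, Efemp2, Mfap4 and Mfap5. The members were chosen by gene symbol, all 10 were found among the 20270 genes in the tables, and all 10 passed the filter on low counts that left 15315 genes for testing. The series compared the lower right lung lobe of 3 groups of mice. The Control group held 4 libraries from wildtype mice without bleomycin (saline, per the study's methods), and the WT bleomycin group held 5 libraries from wildtype mice, studied 14 days after 1 oropharyngeal dose of bleomycin of 1 U per kg. In the CB1R KO bleomycin group, 4 mice labelled as lacking Cnr1, the gene of the cannabinoid receptor CB1R, received the same dose and were studied at the same time. Per the study's methods the wildtype mice were male C57BL/6J, bought at 13 weeks of age. The Cnr1-/- mice were on a C57BL/6J background, and their age and sex are not given in the sources used here, so whether they matched the wildtype mice in these is not known. Uninjured mice of the CB1R KO line are not analysed here, so an effect of the genotype without injury and an effect on the response to bleomycin cannot be told apart. Mice are named by the numbers in their labels, and values are given in this order throughout: 3, 21, 24 and 26 for Control, 4, 2, 5, 4-B2 and 7 for WT bleomycin, and 8, 9, 10 and 11 for CB1R KO bleomycin.

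Levels are given in TPM, a measure scaled to transcript length and library size that allows genes to be set beside each other. Differences are log2 fold changes with their standard errors (SE), from edgeR's quasi-likelihood test on the estimated counts of all 13 libraries, with Benjamini-Hochberg adjustment over the 15315 genes tested. A gene is called changed where the adjusted p is under 0.05. The libraries held between 14615904 and 16662580 estimated counts, except that of CB1R KO mouse 11, which held 53463884 (3.33 times the median of the others). Cnr1 itself was at 0.403 to 1.05 TPM in Control, 0.848 to 1.85 TPM in WT bleomycin and 0.648 to 1.5 TPM in the libraries labelled CB1R KO (log2 fold change -0.53, SE 0.28, adjusted p = 0.367 between the bleomycin groups). The values are sums over the gene's transcripts and do not say whether the deleted part was read, so the genotype rests on the labels. The WT bleomycin libraries 4 and 4-B2 share a mouse number, and the labels do not say whether they come from 1 mouse. If they did, the group would hold 4 mice and the p-values would be too small, and the 2 calls between the bleomycin groups were both kept without library 4 (adjusted p = 0.0252 for Fbln1 and for Efemp2), while that of Efemp2 was lost without 4-B2. Of all genes 230 were called without library 4 and 30 without 4-B2, against 150 with all libraries. In a whole lobe, fewer cells of a type and less RNA per cell cannot be told apart.

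Elastic fibres let the alveoli, the airways and the vessels of the lung recoil after each breath. Their core is cross-linked elastin, made from the soluble monomer that Eln encodes, and it is laid down on a scaffold of microfibrils built from fibrillins such as that of Fbn1. Fibulins and the microfibril-associated glycoproteins bind both components and help to assemble the fibre, and lysyl oxidases then cross-link the elastin. Most of this assembly takes place before and soon after birth, and the adult lung is known for little turnover of its elastin.

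RefSeq promoter windows (assembly GRCm38.p6) were matched by symbol for 7 of the 10 genes, in 11 windows of 250 bases that end just before an annotated transcription start. No window was matched for Eln, which had the largest rise, nor for Mfap4 and Mfap5. This assembly is another one than that of the authors' reference, and the windows serve only to show the sequence next to the start. Windows are printed for 5 of the 7 genes matched, as these took the main patterns among the 7. Fbn1 and Fbln2 rose several-fold after bleomycin, Efemp1 fell, and Fbln1 and Efemp2 differed between the bleomycin groups. Capitals mark a GC box (GGGCGG on either strand), which the factor Sp1 can bind, or letters searched for as an AP-1 site. The latter were TGANTCA, with any base allowed in the middle, read on both strands.
Fbn1, chr2:125506439-125506688, minus strand: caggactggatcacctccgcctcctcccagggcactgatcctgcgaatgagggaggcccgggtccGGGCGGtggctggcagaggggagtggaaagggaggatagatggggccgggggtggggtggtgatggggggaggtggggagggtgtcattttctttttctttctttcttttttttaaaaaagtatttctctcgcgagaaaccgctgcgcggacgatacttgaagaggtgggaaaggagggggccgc
Fbln2, chr6:91212514-91212763, plus strand: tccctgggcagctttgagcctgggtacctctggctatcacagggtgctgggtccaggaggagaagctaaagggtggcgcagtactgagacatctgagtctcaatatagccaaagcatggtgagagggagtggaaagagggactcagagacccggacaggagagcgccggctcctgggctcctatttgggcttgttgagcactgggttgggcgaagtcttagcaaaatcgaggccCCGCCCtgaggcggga
Efemp1, chr11:28852955-28853204, plus strand: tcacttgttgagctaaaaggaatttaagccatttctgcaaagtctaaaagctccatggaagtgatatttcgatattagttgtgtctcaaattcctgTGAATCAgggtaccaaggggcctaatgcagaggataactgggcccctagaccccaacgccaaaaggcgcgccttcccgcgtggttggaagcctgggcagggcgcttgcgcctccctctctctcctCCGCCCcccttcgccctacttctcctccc
Fbln1, chr15:85205758-85206007, plus strand: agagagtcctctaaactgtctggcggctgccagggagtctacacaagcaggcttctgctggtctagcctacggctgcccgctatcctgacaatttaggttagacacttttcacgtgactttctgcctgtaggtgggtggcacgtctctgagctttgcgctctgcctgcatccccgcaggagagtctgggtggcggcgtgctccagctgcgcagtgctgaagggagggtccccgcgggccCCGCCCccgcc
Efemp2, chr19:5473696-5473945, plus strand: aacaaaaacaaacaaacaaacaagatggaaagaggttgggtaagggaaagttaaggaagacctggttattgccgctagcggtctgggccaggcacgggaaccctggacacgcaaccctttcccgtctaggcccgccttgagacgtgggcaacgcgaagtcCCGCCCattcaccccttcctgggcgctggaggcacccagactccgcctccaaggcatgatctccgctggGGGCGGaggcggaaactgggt
A GC box stood in 8 of the 11 windows, against 32.7% of all 32851 mouse windows of this length. These 8 belong to 6 of the 7 genes, a count per gene to which the share per window does not apply. Windows of the same gene overlap in part, so these 8 are not separate observations. The GC content of the member windows was 46.4% to 78.8%, against a median of 52.4% over all windows. Only 1 window of Fbln5 (49.6%) and 1 of Fbln1 (46.4%) were below that median. The part of GC content in the count of GC boxes was not tested. The letters TGANTCA occurred in the window of Efemp1 alone among the members, as TGAATCA, against 6.75% of all windows. Whether TGAATCA serves as an AP-1 site was not tested. No member window held TATAAA on either strand, against 12.4% of all windows, and CCAAT occurred in 1 window each of Fbln5 and Fbln7, against 33.8%. The 3 windows without a GC box were the 1 of Fbln7, which rose after bleomycin, 1 of Fbln5, and the other window of Fbln1, which is not printed. For Efemp2 the first of its windows is printed. These matches are descriptions of the letters only.

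In Control lungs Mfap4 was by far the most abundant of the 10 genes, at 462 TPM ± 61.5 (SD, n = 4), followed by Efemp1 at 121 ± 9.0. Next came Fbln5 at 77.5 ± 5.34, Eln at 63.6 ± 22.0, Mfap5 at 48.3 ± 7.68, Fbln1 at 45.0 ± 4.24 and Efemp2 at 43.4 ± 4.28. Neighbours among these 5 genes overlapped in their ranges, but all Fbln5 libraries stood above all those of Mfap5, Fbln1 and Efemp2. Fbn1 followed at 21.8 ± 4.64, Fbln2 at 7.01 ± 0.926 and Fbln7 at 0.238 ± 0.0925, each without overlap with the gene above it. In WT bleomycin lungs Eln took first place, at 1208 TPM ± 321 (SD, n = 5), above Mfap4 at 618 ± 125, without overlap of the libraries. Efemp1 moved from second to seventh place, at 77.7 ± 10.3, where its range overlapped that of Efemp2 at 88.1 ± 5.56. In CB1R KO bleomycin lungs the mean of Eln was again the highest, at 989 TPM ± 408 (SD, n = 4), but its range overlapped that of Mfap4 at 842 ± 107.

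**Figure D1:**
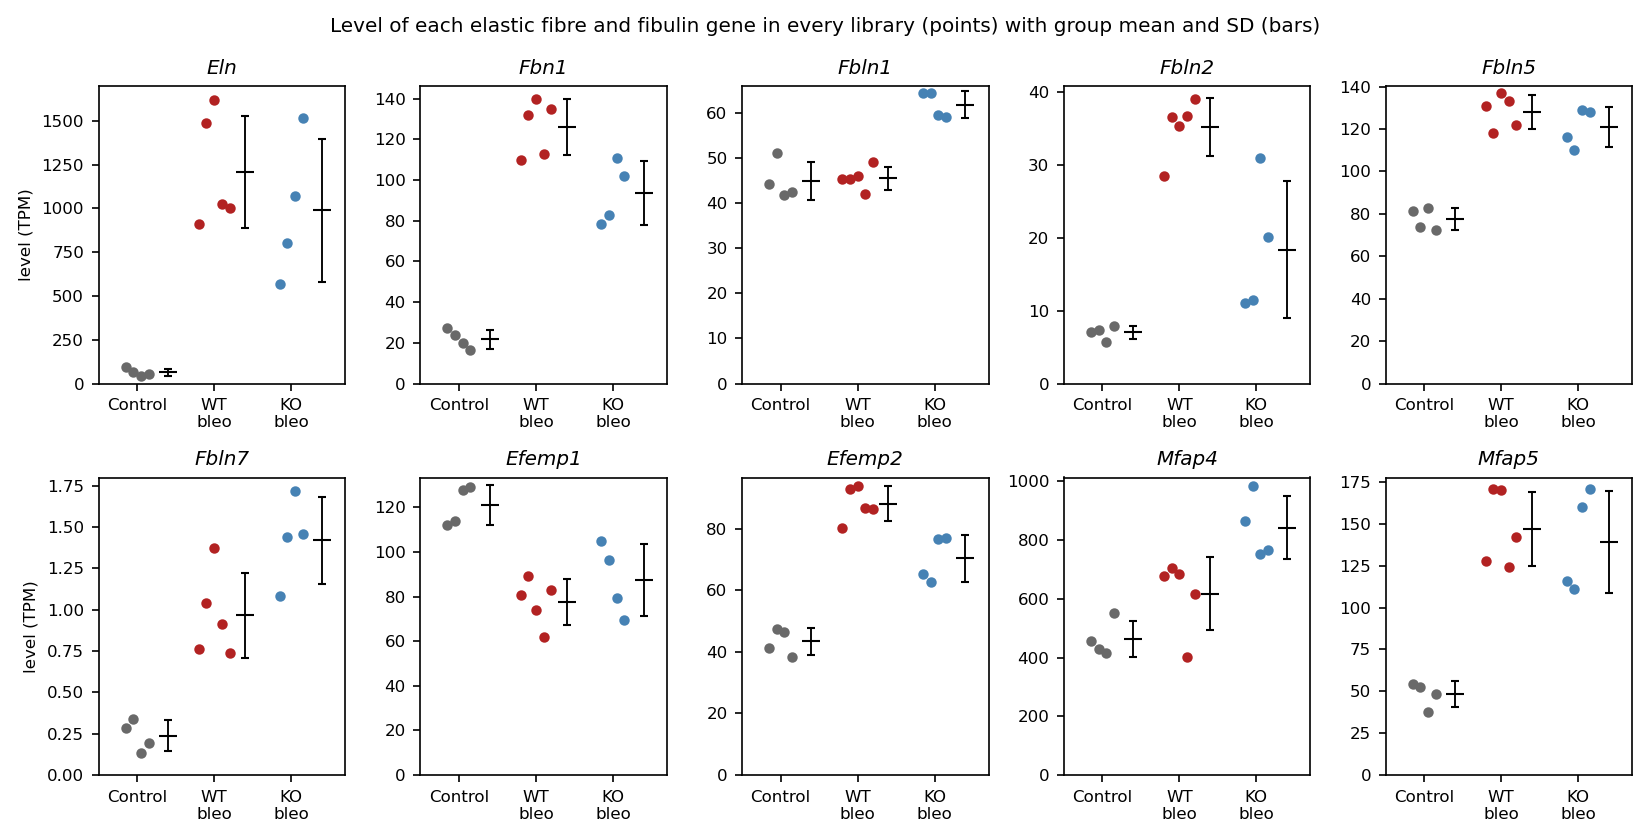
Level of each of the 10 genes in TPM (vertical axes, linear and from 0, 1 scale per gene), with 1 point per library for 4 Control, 5 WT bleomycin and 4 CB1R KO bleomycin libraries. Bars show the group mean and SD. In Eln the WT bleomycin libraries lie between 911 and 1620 TPM and the Control libraries between 40.6 and 92.5, in Efemp1 the Control libraries are the highest, and in Fbln1 the CB1R KO libraries stand above both other groups.

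Bleomycin raised 7 of the 10 genes and lowered 1 in WT lungs. Among all genes tested, 48.9% were called in this comparison, 25.0% as higher and 23.9% as lower, and the count of 8 called members is to be read against that. The TPM ranges of the groups did not overlap for 8 members, against 37.3% of all genes tested. The median log2 fold change of the 10 genes was 1.36, against -0.01 for all genes. The genes that rose were Eln, Fbn1, Fbln2, Fbln7, Mfap5, Efemp2 and Fbln5, in order of their log2 fold changes, Efemp1 fell, and Mfap4 and Fbln1 were not called.

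Eln encodes tropoelastin, the monomer of elastin. Its level in Control lungs was 92.5, 66.9, 40.6 and 54.5 TPM. In WT bleomycin lungs it was 911, 1485, 1620, 1024 and 1002 TPM, and in CB1R KO bleomycin lungs 569, 800, 1069 and 1519 TPM. Every bleomycin library thus stood above every Control library, while the bleomycin groups overlapped, with CB1R KO mice 8 and 9 below all WT mice and mouse 11 near their upper end. Eln rose 18.6-fold in WT bleomycin against Control (log2 fold change 4.22, SE 0.33, adjusted p = 2.84e-07). The log2 fold change of CB1R KO bleomycin against Control was 3.89 (SE 0.33, adjusted p = 1.83e-06). Between the bleomycin groups it was -0.33 (SE 0.28, adjusted p = 0.582), within the spread of the libraries. Single libraries moved this value, to -0.61 without CB1R KO mouse 11, -0.13 without mouse 8 and -0.19 without WT mouse 5, and it was called in none of these.

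Fbn1 encodes fibrillin-1, the main building block of microfibrils. Its levels were 27.3, 23.6, 19.9 and 16.5 TPM in Control and 110, 132, 140, 113 and 135 TPM in WT bleomycin. In CB1R KO bleomycin they were 78.3, 82.6, 111 and 102 TPM. The Control libraries were the lowest, and of the CB1R KO libraries only that of mouse 10 reached the range of the WT mice. Fbn1 rose 5.65-fold in WT bleomycin (log2 fold change 2.50, SE 0.15, adjusted p = 4.45e-08) and 4.05-fold in CB1R KO bleomycin (log2 fold change 2.02, SE 0.15, adjusted p = 6.41e-07), both against Control. The difference of -0.48 between CB1R KO and WT bleomycin (SE 0.14, adjusted p = 0.102) was not called.

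Mfap5 encodes a small glycoprotein that binds fibrillin-1 on microfibrils. It stood at 54.6, 52.8, 37.5 and 48.3 TPM in Control, at 128, 171, 170, 124 and 142 TPM in WT bleomycin and at 116, 111, 160 and 171 TPM in CB1R KO bleomycin. Both bleomycin groups lay above all Control libraries and overlapped each other. The gene rose 3.26-fold in WT bleomycin (log2 fold change 1.70, SE 0.14, adjusted p = 4.58e-07). Its log2 fold change was 1.56 in CB1R KO bleomycin against Control (SE 0.14, adjusted p = 4e-06) and -0.15 between the bleomycin groups (SE 0.13, adjusted p = 0.601), where leaving out 1 library gave values from -0.24 (without mouse 10) to -0.07 (without mouse 8 or 9).

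Mfap4 encodes a fibrinogen-related protein that binds elastin and microfibrils in the lung. Control libraries held 455, 428, 415 and 551 TPM of it. WT bleomycin libraries held 679, 704, 686, 402 and 618 TPM, and CB1R KO bleomycin libraries 866, 984, 754 and 765 TPM. Mouse 4-B2 was below all Control mice, the other 4 WT bleomycin mice were above them, and all 4 CB1R KO mice were above every mouse of the other groups. The log2 fold change of WT bleomycin against Control was 0.37 (SE 0.15, adjusted p = 0.053) and was not called. It was called in 8 of 25 alternatives, among them DESeq2 on all libraries (0.36, adjusted p = 0.033), leaving out mouse 4-B2 (0.48, adjusted p = 0.00553) or Control mouse 26 (0.48, adjusted p = 0.0197), and the libraries with lower case titles alone (0.63, adjusted p = 0.00178). Mfap4 rose 1.68-fold in CB1R KO bleomycin against Control (log2 fold change 0.75, SE 0.16, adjusted p = 0.00211). Between the bleomycin groups the difference was 0.38 (SE 0.15, adjusted p = 0.208), not called although the groups did not overlap.

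Fbln5 encodes fibulin-5, which binds tropoelastin and cell surface integrins and is needed for elastic fibres to form. Its levels in Control were 81.4, 73.7, 82.7 and 72.2 TPM. They were 131, 118, 137, 133 and 122 TPM in WT bleomycin and 116, 110, 129 and 128 TPM in CB1R KO bleomycin. No bleomycin library reached down to the Control libraries, and the bleomycin groups overlapped. Fbln5 rose 1.6-fold in WT bleomycin (log2 fold change 0.68, SE 0.07, adjusted p = 3.13e-06). In CB1R KO bleomycin the log2 fold change against Control was 0.54 (SE 0.07, adjusted p = 7.86e-05), and against WT bleomycin it was -0.14 (SE 0.07, adjusted p = 0.323).

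Efemp2 encodes fibulin-4, which brings lysyl oxidase to tropoelastin. Control lungs held 41.3, 47.4, 46.4 and 38.3 TPM, WT bleomycin lungs 80.1, 92.9, 93.8, 86.8 and 86.5 TPM, and CB1R KO bleomycin lungs 65.2, 62.6, 76.5 and 77.0 TPM. The 3 groups did not overlap, with the CB1R KO libraries between the other groups. Efemp2 rose 2.01-fold in WT bleomycin against Control (log2 fold change 1.01, SE 0.08, adjusted p = 4.84e-07). It was also higher than Control in CB1R KO bleomycin (log2 fold change 0.61, SE 0.09, adjusted p = 0.000115). It was lower in CB1R KO than in WT bleomycin, by a log2 fold change of -0.40 (SE 0.08, adjusted p = 0.0371), in 4 of 4 mice.

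Efemp1 encodes fibulin-3, a short fibulin that binds the inhibitor TIMP3 and occurs in elastic tissues and basement membranes. It was the 1 member that fell. Its levels were 112, 114, 128 and 129 TPM in Control, 80.5, 89.1, 74.0, 62.0 and 82.8 TPM in WT bleomycin and 105, 96.6, 79.4 and 69.4 TPM in CB1R KO bleomycin. All bleomycin libraries lay below the lowest Control library, and CB1R KO mice 8 and 9 lay above all WT bleomycin mice. The log2 fold change was -0.70 in WT bleomycin (SE 0.12, adjusted p = 0.000211) and -0.56 in CB1R KO bleomycin (SE 0.12, adjusted p = 0.00298), both against Control. The difference of 0.13 between the bleomycin groups (SE 0.12, adjusted p = 0.598) was within the spread, and it was 0.05 without mouse 8 and 0.25 without mouse 11.

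Fbln1 encodes fibulin-1, found in the elastin core of fibres and in basement membranes. In Control it was at 44.4, 51.2, 41.9 and 42.6 TPM and in WT bleomycin at 45.5, 45.5, 46.0, 42.1 and 49.2 TPM. In CB1R KO bleomycin it was at 64.4, 64.5, 59.6 and 59.1 TPM. Control and WT bleomycin overlapped over their whole width, and all 4 CB1R KO libraries stood above both. WT bleomycin differed from Control by a log2 fold change of -0.01 (SE 0.07, adjusted p = 0.914), the smallest in size of the 10 genes, and its sign changed under several settings. Fbln1 was higher in CB1R KO than in WT bleomycin by 0.43 (SE 0.07, adjusted p = 0.0177), and higher than in Control by 0.42 (SE 0.07, adjusted p = 0.000503).

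Fbln2 encodes fibulin-2, a large fibulin of basement membranes and vessel walls that also binds fibrillin-1. Levels in Control were 7.07, 7.34, 5.72 and 7.9 TPM. In WT bleomycin they were 28.5, 36.6, 35.4, 36.7 and 39.0 TPM, and in CB1R KO bleomycin 11.0, 11.5, 30.9 and 20.1 TPM. The CB1R KO group was split, with mice 8 and 9 just above the Control range, mouse 10 inside the WT bleomycin range and mouse 11 between. Its SD was 50.8% of its mean, the widest relative spread of any member in any group. Fbln2 rose 4.76-fold in WT bleomycin (log2 fold change 2.25, SE 0.26, adjusted p = 7.75e-06) and 2.38-fold in CB1R KO bleomycin (log2 fold change 1.25, SE 0.26, adjusted p = 0.00208). The difference between the bleomycin groups, -1.0 (SE 0.24, adjusted p = 0.0627), was not called. Without mouse 10 it was -1.36 (adjusted p = 0.00239), without WT mouse 4 it was -1.09 (adjusted p = 0.0472), and without mouse 8 it was -0.82 (adjusted p = 0.173).

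Fbln7 encodes fibulin-7, a cell adhesion protein first studied in teeth and cartilage. It was rare, with 4.0 to 11.0 estimated counts in a Control library, 22.0 to 42.0 in a WT bleomycin library and 30.0 to 146.6 in a CB1R KO library. Its levels were 0.283, 0.34, 0.132 and 0.194 TPM in Control. They were 0.764, 1.04, 1.37, 0.915 and 0.738 TPM in WT bleomycin and 1.08, 1.44, 1.72 and 1.46 TPM in CB1R KO bleomycin. Control stood below both bleomycin groups, which overlapped in mouse 8. The log2 fold change against Control was 1.98 in WT bleomycin (SE 0.31, adjusted p = 0.00011) and 2.51 in CB1R KO bleomycin (SE 0.31, adjusted p = 3.67e-05). The difference of 0.53 between the bleomycin groups (SE 0.25, adjusted p = 0.295) was not called.

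**Figure D2:**
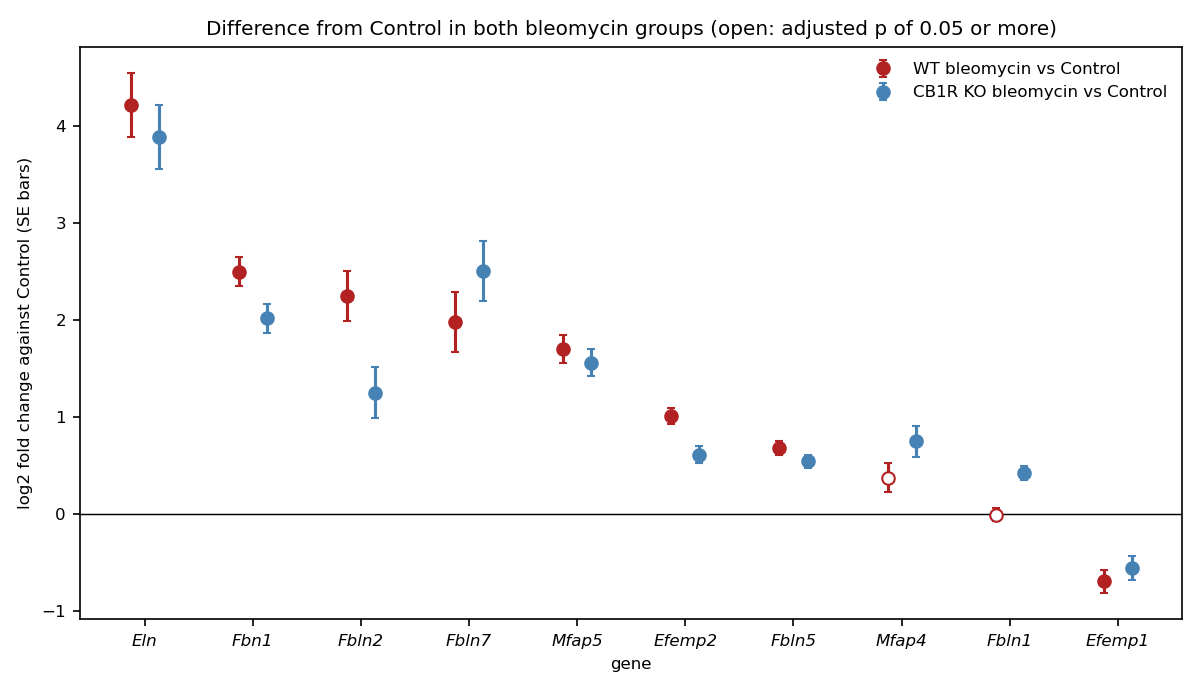
Log2 fold change against Control (vertical axis) with SE bars for each gene in WT bleomycin (left point) and CB1R KO bleomycin (right point), which share the same 4 Control libraries. Eln is highest in both, at 4.22 and 3.89, and Efemp1 lowest, at -0.70 and -0.56, and the open points are Mfap4 and Fbln1 in WT bleomycin.

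In CB1R KO bleomycin against Control all 10 genes were called, 9 higher and 1 lower, against 35.4% of all genes tested (19.0% higher and 16.3% lower). None of the 10 overlapped between these groups, against 32.6% of all genes. The median log2 fold change was 1.0, against -0.01 over all genes. Both comparisons with Control use the same 4 Control libraries and so are not independent. Mfap4 and Fbln1 were called here and not in WT bleomycin, but only the direct comparison of the bleomycin groups tests whether the groups differ.

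That direct comparison called 2 of the 10 genes, Fbln1 as higher and Efemp2 as lower in the libraries labelled CB1R KO. Of all genes tested 0.979% were called, 0.359% as higher and 0.62% as lower. The TPM ranges did not overlap for 3 members, Fbln1, Efemp2 and Mfap4, against 5.27% of all genes, and 5 members had an unadjusted p under 0.05 against 17.0%. Signs were mixed, with 4 log2 fold changes above 0 and 6 below, a median of -0.14 and a range from -1.0 in Fbln2 to 0.53 in Fbln7. The median over all genes was 0.00. The 2 members furthest below 0, Fbln2 and Fbn1, were not called.

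Both calls between the bleomycin groups were lost when single libraries were left out. Without CB1R KO mouse 8, 9 or 11 neither gene was called, with adjusted p values of 0.0684, 0.0704 and 0.0521 for Fbln1 and 0.128, 0.144 and 0.0861 for Efemp2. Over all genes only 9, 1 and 3 were called in these settings, against 150 with all libraries. The loss of calls was thus not particular to these 2 genes. Without CB1R KO mouse 10 there were 4 calls, Fbn1 (-0.57, adjusted p = 0.0384) and Fbln2 (-1.36, adjusted p = 0.00239) besides Fbln1 (0.45, adjusted p = 0.00544) and Efemp2 (-0.46, adjusted p = 0.00925). Calls over all genes rose as well in that setting, to 653 of 15417. Efemp2 was also not called without Control mouse 24 or WT mouse 2, 5, 4-B2 or 7, with adjusted p values from 0.0549 to 0.0922. In the same order 85, 62, 24, 30 and 35 genes of all were called. DESeq2 on all libraries called 4 members, the same genes as without mouse 10, and limma on log2 TPM called Fbln1 alone with a pseudocount of 1, the setting meant wherever limma is named here, and no member with 0.1. Of all 15315 genes DESeq2 called 646, and limma called 81 with a pseudocount of 1 and 3 with 0.1. The differences ranged from 0.40 to 0.46 for Fbln1 and from -0.46 to -0.32 for Efemp2 over 25 alternatives. All CB1R KO titles are in lower case while 1 Control and 2 WT bleomycin titles are in mixed case, and what this title style stands for is not given. Among libraries with lower case titles alone the differences were 0.45 for Fbln1 (adjusted p = 0.0954) and -0.39 for Efemp2 (adjusted p = 0.212). Only 6 of 15314 genes were called there.

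**Figure D3:**
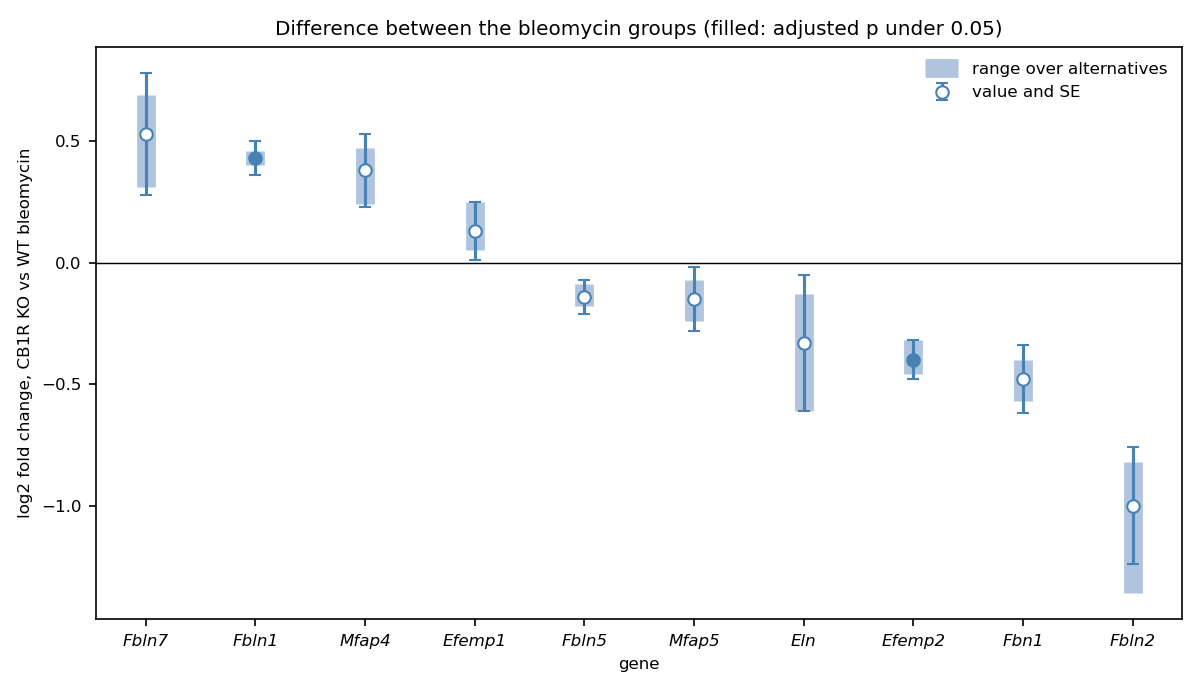
Log2 fold change of CB1R KO bleomycin against WT bleomycin (vertical axis) for each gene, with SE bars and, as pale bands, the lowest to highest value over the alternative settings. Fbln1 at 0.43 and Efemp2 at -0.40 are filled as called, and no band crosses 0.

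The summed level of the 10 genes was 915, 866, 817 and 961 TPM in Control. It was 2194, 2876, 3003, 2026 and 2277 TPM in WT bleomycin and 1991, 2325, 2472 and 2913 TPM in CB1R KO bleomycin. The bleomycin groups overlapped over most of their range, and both were above all Control libraries. The make-up of the sum shifted from Mfap4 to Eln. Mfap4 gave 51.8% ± 3.73 (SD, n = 4) of it in Control, 25.1% ± 4.22 (n = 5) in WT bleomycin and 35.7% ± 8.58 (n = 4) in CB1R KO bleomycin. Eln gave 7.12% ± 2.31, 48.3% ± 5.31 and 39.6% ± 10.3 in the same order. Efemp1 went from 13.6% ± 1.43 in Control to 3.18% ± 0.494 and 3.76% ± 1.25. In CB1R KO mice 8 and 9 Mfap4 exceeded Eln, and in mice 10 and 11 Eln exceeded Mfap4.

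**Figure D4:**
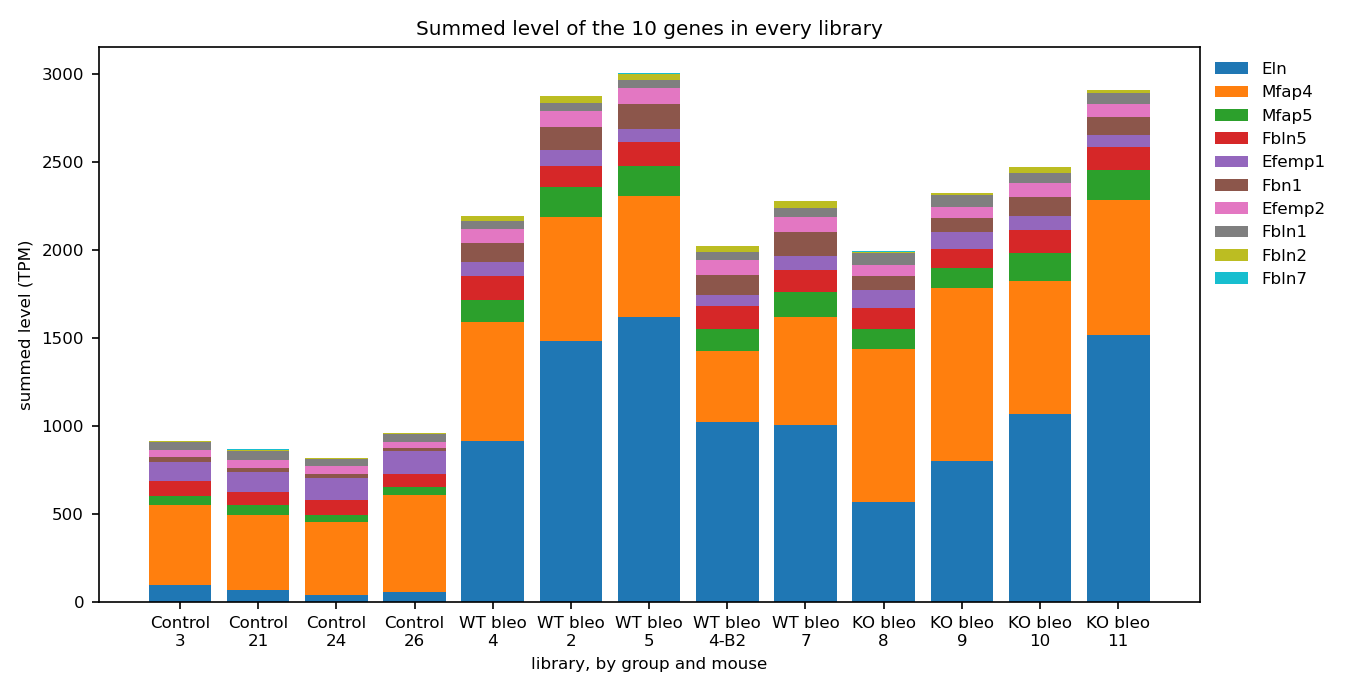
Summed level of the 10 genes in TPM (vertical axis, from 0) in each of the 13 libraries, stacked by gene. Control sums lie between 817 and 961 TPM with Mfap4 as the largest part, and bleomycin sums between 1991 and 3003 TPM with Eln as the largest part except in CB1R KO mice 8 and 9.

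The other genes of the pathway were taken in 4 lists, and their counts are to be read against the shares of all genes tested. These were 48.9% called in WT bleomycin against Control (25.0% higher, 23.9% lower), 35.4% in CB1R KO bleomycin against Control (19.0% higher) and 0.979% between the bleomycin groups, where 17.0% had an unadjusted p under 0.05. These are shares by edgeR. Between the bleomycin groups DESeq2 on all libraries called 646 and limma 81 of the 15315 genes. Of 15 microfibril and elastin-binding partners 14 were tested, Hmcn2 being too low, and in WT bleomycin against Control 7 rose and 2 fell. The largest rises were those of Fbn2, a fibrillin known mainly from development (log2 fold change 3.13, SE 0.36), Emilin3, an elastin interface protein (2.05, SE 0.38), and Ltbp2, a fibrillin-1-binding protein that carries no latent TGF-beta (2.04, SE 0.17). Fbn2 and Emilin3 stayed rare, with means of 0.853 and 0.485 TPM in WT bleomycin, and Ltbp2 reached 162 TPM. Ltbp4, which guides elastin deposition together with fibulin-4 and fibulin-5, and Adamtsl4, a microfibril-binding protein, were the 2 that fell (-1.18, SE 0.09 and -0.35, SE 0.11). They are named outside the rule for named genes, after their values were seen. None of the 14 was called between the bleomycin groups by edgeR, 3 had an unadjusted p under 0.05, DESeq2 called Ltbp2 alone, as lower, and limma called none.

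Of 6 cross-linking genes, 5 rose in WT bleomycin against Control and 5 rose in CB1R KO bleomycin. Lox, lysyl oxidase, rose by 2.41 on the log2 scale (SE 0.19), Loxl2 by 2.03 (SE 0.18) and Loxl1, the family member that fibulin-5 binds, by 1.5 (SE 0.19). Lox stood at 23.1, 20.1, 21.5 and 21.1 TPM in Control. It stood at 96.1, 118, 111, 121 and 137 TPM in WT bleomycin and at 47.5, 55.2, 102 and 63.5 TPM in CB1R KO bleomycin. Mouse 10 was inside the WT bleomycin range and the other 3 CB1R KO mice were below it, as in Fbn1. Lox was lower in CB1R KO than in WT bleomycin (log2 fold change -0.85, SE 0.18, adjusted p = 0.0396), a call kept in 11 of 25 alternatives and lost without any 1 of mice 8, 9 and 11. Without mouse 8, 9 or 11 only 9, 1 and 3 genes of all were called. Loxl1 and Loxl2 were at -0.21 (SE 0.18) and -0.44 (SE 0.17) and were not called.

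Of 10 elastin-degrading proteases 7 were tested, Mmp7, Elane and Prtn3 being too low, and 5 rose and 1 fell in WT bleomycin against Control. Mmp12, the macrophage elastase, rose by 2.98 (SE 0.64), with values from 2.65 (without Control mouse 3) to 4.66 (without Control mouse 21) over the alternatives. It stood at 4.04, 51.2, 6.42 and 5.13 TPM in Control and at 165, 205, 173, 56.8 and 68.9 TPM in WT bleomycin. The 2 lowest WT bleomycin libraries, of mice 4-B2 and 7, are those with mixed case titles and were near Control mouse 21. Mmp2, gelatinase A, rose by 2.24 (SE 0.16) and Ctss, the lysosomal elastase cathepsin S, by 2.18 (SE 0.12). Mmp9, gelatinase B, fell by 1.82 (SE 0.35) and is named after its value was seen. No protease was called between the bleomycin groups by edgeR, DESeq2 or by limma, with none at an unadjusted p under 0.05.

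Of 10 elastase inhibitors 5 were tested, since Serpina1a, Serpina1b, Serpina1c, Serpina1d and Serpina1e, near-identical copies whose reads cannot be shared out with certainty, were too low. Timp1, an inhibitor of metalloproteinases, and Slpi, an inhibitor of neutrophil elastase, rose in WT bleomycin against Control. Timp1 stood at 6.94, 20.5, 9.27 and 6.8 TPM in Control. It stood at 216, 263, 262, 299 and 310 TPM in WT bleomycin and at 68.2, 72.3, 171 and 89.4 TPM in CB1R KO bleomycin. The 3 groups did not overlap, and mouse 10 was again the highest of the CB1R KO mice. Timp1 rose by 4.58 (SE 0.35) in WT bleomycin and was lower in CB1R KO than in WT bleomycin by a log2 fold change of -1.46 (SE 0.29, adjusted p = 0.0314), a call kept in 15 of 25 alternatives and lost without any 1 of mice 8, 9 and 11. As said for Lox, 9, 1 and 3 genes of all were called in those 3 settings. Slpi stood at 84.5, 79.9, 53.9 and 89.0 TPM in Control and at 100, 84.9, 90.2, 223 and 177 TPM in WT bleomycin. The 2 highest libraries, of mice 4-B2 and 7, are those with mixed case titles. Slpi rose by 0.74 (SE 0.28, adjusted p = 0.0386), a call lost in 9 of 25 alternatives. By edgeR it was 0.46 (adjusted p = 0.109) without mouse 4-B2 and 0.28 (adjusted p = 0.207) among lower case titles alone.

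**Figure D5:**
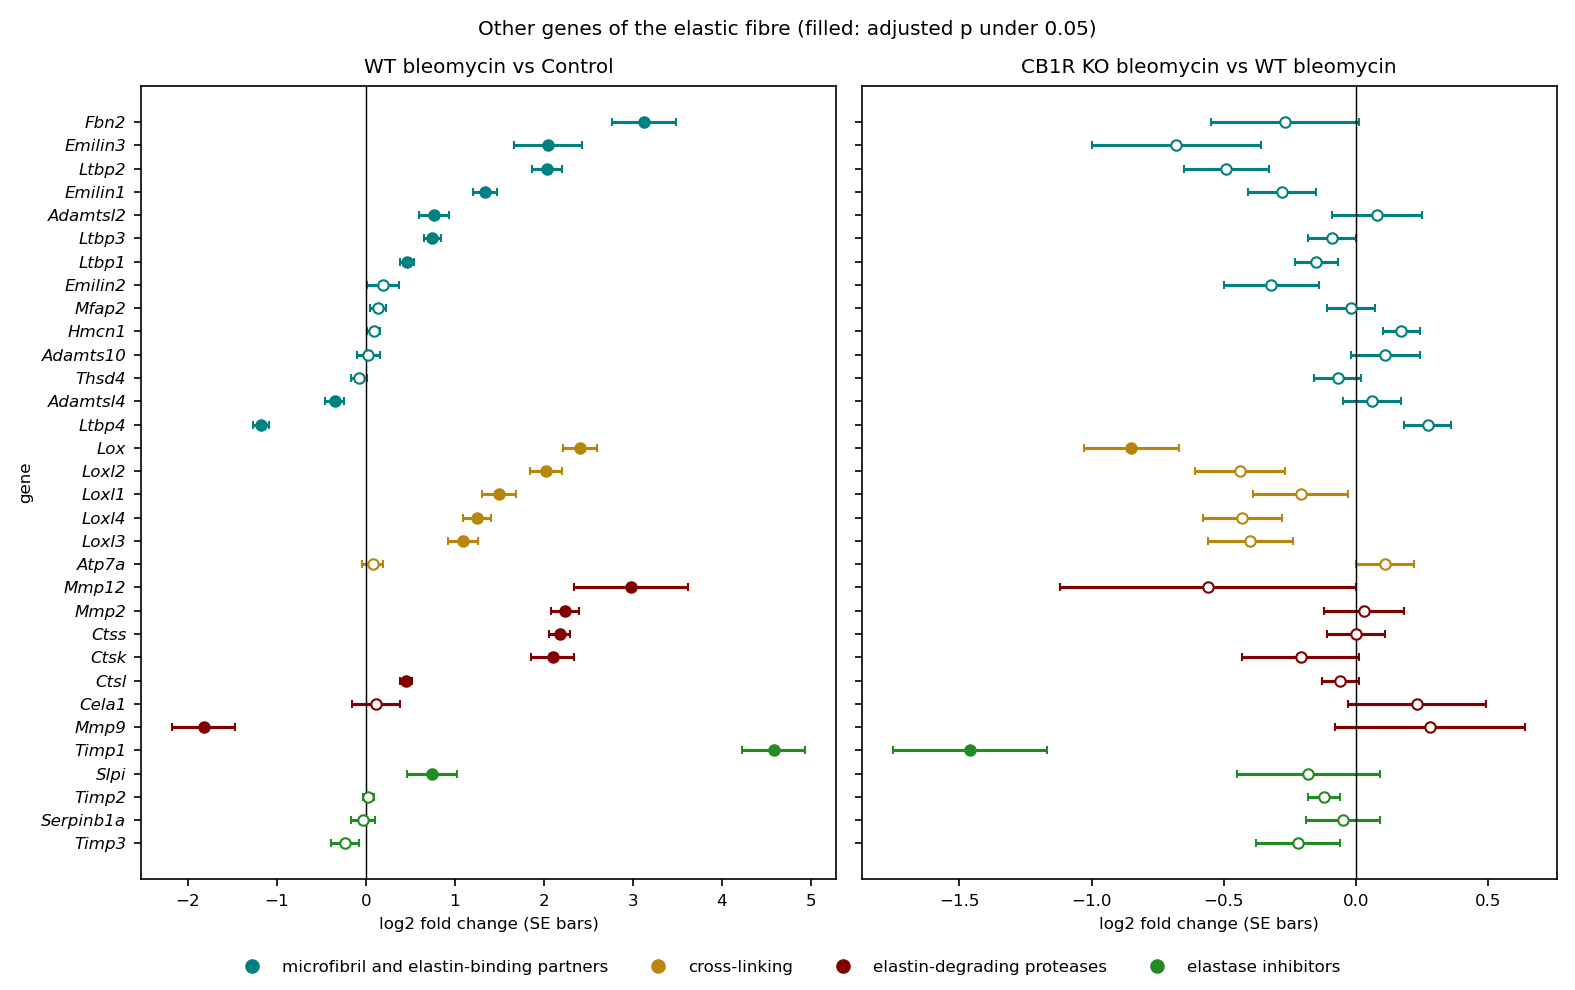
Log2 fold change with SE bars (horizontal axes, with different scales) of the tested genes in the 4 lists, for WT bleomycin against Control on the left and CB1R KO against WT bleomycin on the right. On the left the rises reach 4.58 in Timp1 and the falls -1.82 in Mmp9, and on the right only Lox at -0.85 and Timp1 at -1.46 are filled as called.

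The genes whose levels ran most like those of a member over the 13 libraries were found by the root mean square difference in log2 CPM (counts scaled to library size), each gene taken against its own Control mean. For Fbn1 they were Mmp14, a membrane-bound matrix metalloproteinase, at 0.12, Col5a1, a chain of collagen V, at 0.19 and Wfdc17 at 0.21. For Efemp2 the first was Bgn, the small proteoglycan biglycan, at 0.07, followed by Ifi30 and Fndc3b at 0.11 each. Mfap5 was nearest to Kdelr3 and Pdgfrl at 0.15 each and Acp5 at 0.17, and Mfap4 to P2rx5, Efna3 and Dpt at 0.17 each. Fbln1 was nearest to Dipk1b at 0.13 and to St6galnac2 and Nipal2 at 0.14 each. Efemp1 had Dhdh at 0.08, Tmem47 at 0.09 and Git2 at 0.11, and Fbln5 had 1600014C10Rik and Psmd8 at 0.08 each and Cfl1 at 0.09. Members with wide swings had no gene as near. The nearest were Fcgr2b at 0.25, Tubb3 at 0.26 and Basp1 at 0.27 for Fbln2, Mybpc2 at 0.34, Lhfpl2 at 0.39 and Ctss at 0.40 for Fbln7, and Ankrd34b at 0.48, Psrc1 at 0.49 and Tnc at 0.51 for Eln. Among the members themselves Fbln5 and Efemp2 were the nearest pair, at 0.24.

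Cell type markers differed between the groups as well, and their part in the results was not tested. The share of all genes called in WT bleomycin against Control, 48.9%, is the background for the counts that follow. In WT bleomycin against Control all 8 markers of activated fibroblasts were called higher, and their summed level went from 341 to 458 TPM in Control to 1608 to 2138 TPM. All 8 markers of alveolar fibroblasts were called lower, with sums of 3715 to 4444 TPM in Control and 807 to 1213 TPM in WT bleomycin. Adventitial fibroblast markers, 5 of 8 called with 4 higher, summed to 1053 to 1313 TPM and 1501 to 1785 TPM. Smooth muscle markers, 4 of 8 called with 3 higher, were called no more often than about that share, and summed to 524 to 637 TPM and 680 to 1012 TPM. Markers of other sources of RNA fell: endothelium in 5 of 6 (1536 to 1993 TPM against 1068 to 1310 TPM), cardiac muscle in 7 of 7 (554 to 1492 TPM against 105 to 417 TPM), adipocytes in 4 of the 6 tested (71.0 to 264 TPM against 24.8 to 148 TPM), and lung epithelium in 5 of 7. For the mesothelium 1 marker of 6 was higher and 3 were lower, with sums of 133 to 172 TPM and 120 to 180 TPM. The lung epithelium markers were present in every library, as the tissue label says, with sums of 113115 to 128876 TPM in Control, 61704 to 80280 TPM in WT bleomycin and 67744 to 83327 TPM in CB1R KO bleomycin. No marker was at 0 in every library of a group, and Lep, an adipocyte marker too low to be tested, was at 0 in some.

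Between the bleomycin groups, where 0.979% of all genes were called and 17.0% had an unadjusted p under 0.05, 3 of 8 alveolar fibroblast markers were called higher in CB1R KO, with sums of 2330, 2084, 1097 and 1465 TPM in mice 8, 9, 10 and 11. DESeq2 called 4 of these 8 markers as higher, and limma only 1, Fgfr4. No activated fibroblast marker was called by edgeR or limma and DESeq2 called 3 as lower, while 5 of 8 had an unadjusted p under 0.05 and all 8 log2 fold changes were below 0, with sums of 1211, 1157, 1766 and 1488 TPM in the same order. Mice 8 and 9 thus had the highest alveolar and the lowest activated fibroblast sums of the group, and they had the lowest levels of Eln, Fbn1, Fbln2, Efemp2, Fbln5, Mfap5 and Lox and the highest of Efemp1, Fbln1 and Mfap4. They were also lowest in Fbln7, at 1.08 and 1.44 TPM against 1.72 and 1.46 TPM, although Fbln7 had a log2 fold change above 0 between the bleomycin groups. Over the genes with enough counts, mice 8 and 9 were the most alike pair of the group. They differed by 6.32 chi-square units per degree of freedom, against 19.35 and 21.77 for each of them with mouse 10. Whether the split is particular to the genes named was not tested. Smooth muscle markers summed to 575 to 673 TPM in CB1R KO bleomycin, with 2 of 8 called lower, and surfactant genes made up the 2 of 7 lung epithelium markers called higher. DESeq2 called 3 smooth muscle markers as lower and limma 2. Of the lung epithelium markers DESeq2 called 2 as higher and limma only 1, Sftpc. For adventitial fibroblasts (1393 to 1694 TPM), mesothelium (116 to 152 TPM), endothelium (1267 to 1505 TPM), cardiac muscle (378 to 717 TPM) and adipocytes (64.7 to 269 TPM) edgeR called no marker, with 2 of 8, 1 of 6, 3 of 6, 5 of 7 and 4 of 6 at an unadjusted p under 0.05. In the same order DESeq2 called 1, 1, 0, 1 and 2 of them, and limma called none. The background for the DESeq2 counts is 646 of 15315 genes called, and for limma it is 81. Without CB1R KO mouse 8, 9 or 11 edgeR called only 9, 1 and 3 genes of all. The marker calls were not followed in those settings.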

How the data were processed

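RNA of the lower right lung lobe of mice was sequenced in 13 poly(A)-selected libraries. The authors quantified reads with kallisto against an Ensembl mouse reference (GRCm39) and summed protein-coding transcripts per gene. They deposited estimated counts (70.5% of the values are not whole) and TPM, whose sums per library were 821763 to 854358. 1 column of per-sample values that matched no sample label was not used. Its heading, found among the TPM values, names wildtype and bleomycin, and the ranges given for WT bleomycin leave it out.

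Estimated counts were rounded and tested with edgeR 4.0.16 (filterByExpr, TMM, quasi-likelihood, R 4.3.3) over 3 groups, with Benjamini-Hochberg adjustment over 15315 genes and a threshold of 0.05, after a check on simulated data. DESeq2 1.42.0, which the study used, and limma 3.58.1 on log2 TPM with pseudocounts of 1 and 0.1 were alternatives, along with other filters, normalizations, title style, thinning of mouse 11 and leaving out each library. The median SE of a log2 fold change was 0.11 or 0.12 in each comparison. Replicates differed by more than counting noise (at least 6.32 chi-square units per degree of freedom), so none was counted as the same library deposited again. This does not show that libraries 4 and 4-B2 come from different mice. P-values set the difference between groups against the spread between these libraries, each taken as a separate mouse.

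The members, the gene lists and the tests were chosen with earlier results of these data known. Named genes were the 10 members. In each of 4 further lists they were the genes called between the bleomycin groups, the 3 with the largest called change in WT bleomycin against Control, and genes not tested. For each member the 3 genes nearest in pattern were named. Motifs were searched as letters in RefSeq windows of GRCm38.p6. Pulmonary function and metabolites were not analysed here.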

Additional observations from a re-analysis of the deposited data

Results flagged for a closer look

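The level of Mfap4 in WT bleomycin mouse 4-B2, 402 TPM, stood apart from the other 4 libraries of its group, which held 618 to 704 TPM. Its gap to the nearest of them was 0.715 of the whole range of the group. The limit for a group of 5 was 0.71. This was the 1 value that stood apart among 30 gene and group combinations tested. Chance alone flags about 1 in 20 such combinations, so 1 flag among 30 is no more than chance gives. Without this library the log2 fold change of Mfap4 in WT bleomycin against Control was 0.48 (edgeR, Benjamini-Hochberg adjusted p = 0.00553).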

How the results depend on the processing

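Over 25 alternatives, 13 of which leave out 1 library, the counts of members called against Control stayed within 1.5 times 8 in WT bleomycin and 10 in CB1R KO bleomycin. The count of 2 between the bleomycin groups was 4 with DESeq2 on all libraries, 1 and 0 with limma on log2 TPM and pseudocounts of 1 and 0.1, 1 with title style as a batch term, 0 with lower case titles alone, and 0 to 4 when 1 library was left out, and the cause was not tested. In the first 5 of these settings 646, 81, 3, 41 and 6 genes of all were called, against 150 in the main fit. The count of members was 0 without CB1R KO mouse 8, 9 or 11, 4 without mouse 10, and 1 without Control mouse 24 or WT mouse 2, 5, 4-B2 or 7. Calls over all genes were 9, 1 and 3 without mouse 8, 9 and 11, and 653 without mouse 10. In these settings the calls over all genes moved along with those of the members. Besides Fbln1 and Efemp2, Fbln2 was called without WT mouse 4 (edgeR, adjusted p = 0.0472). Fbn1 was called besides them with DESeq2 on the 2 bleomycin groups alone (adjusted p = 0.00623). Calls over all genes were 230 and 655 there. The log2 fold change of Fbln1 in WT bleomycin against Control, near 0, turned to 0.02 with limma under both pseudocounts and ran from -0.04 to 0.05 when 1 library was left out (0.05 without Control mouse 21, 0.01 without WT mouse 4 or 4-B2). That of Fbln7 was 0.66 with limma and a pseudocount of 1, which understates the change of so low a gene, and Fbln7 was not tested where at least 10 counts were asked of every library. The same pseudocount gave 0.76 for Fbn2 and 0.41 for Emilin3. Without a replicate of the same number in any other group, no pairing exists: No paired analysis was possible because the groups compared share fewer than 2 replicate numbers. Depth limits Fbln7, at 4.0 to 11.0 counts per Control library.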
